A study of Mus musculus with 3 samples.

Results

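The p53 pathway genes of MC3T3-E1 cells were examined in RNA-seq data from 3 libraries. The set was 37 genes chosen by name, namely p53 itself (Trp53) and genes grouped with it as targets, regulators or relatives of these. Whether p53 controls each member in these cells was not tested. Of the 37, 35 were found among the 15287 genes of the FPKM table. Pmaip1 and Perp were not analysed here. MC3T3-E1 is a preosteoblast line from mouse calvaria, labelled wild type. Cells of the CTL library had no special treatment, those of Ti were stimulated with titanium particles (10 μg per square centimetre, 24 h), and those of Ti+Se-Met had selenomethionine (Se-Met, 5 μM) besides the same particle dose and time. Each condition was 1 library, so no difference had a replicate check, no test between conditions was possible, and every comparison below is between libraries. In bulk RNA, fewer cells that express a gene and less RNA per cell cannot be told apart.

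p53 is a transcription factor that is held at a low level by MDM2, a ubiquitin ligase that marks it for destruction, and by the related MDM4, which binds and masks it. DNA damage, oncogenic signals or ribosomal stress release p53, which then induces genes that stop the cell cycle, start cell death, repair DNA or change metabolism, and also Mdm2, which closes the loop. Much of p53's regulation happens on the protein, so its mRNA is only one layer of the pathway.

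p53 binds DNA as a tetramer, on a pair of decamers that each carry C at position 4 and G at position 7. The RefSeq promoter windows of GRCm38.p6, from 250 bases before to 50 bases after each start, were searched for 2 p53 consensus decamers set apart by 0 or 1 base, with at most 3 mismatches over the 20 positions and with every C and G of the cores in place. The decamer reads the same on both strands, so 1 pass covered both. Only 1 match per window, that with the fewest mismatches, was kept, so a window may hold others that are not shown. Of the 37 genes, 30 had a window, and 9 of these 30 held a match, against 3.27% of all genes with a window and 2.82% of the 32851 windows. The members were chosen by name as p53 pathway genes, so a high share can follow from that choice. A match is a description of letters and was not tested for binding. The stretches below are the matches found in the windows of these 9 genes. Another 21 members held no match in their windows and 7 had no window. Sequence outside the windows was not searched. They run 5′ to 3′ on the gene's strand, with the pair of decamers in capitals, which in Bax include the 1 base between them. Aen and Tigar are given without flanks because annotated exons overlap them, and the match of Aen also lies 10 bases after another of its starts.

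Cdkn1a, chr17:29090908-29090967, + strand, 1 mismatch: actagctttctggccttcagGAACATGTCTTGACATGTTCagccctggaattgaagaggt
Ccng1, chr11:40755442-40755501, - strand, 1 mismatch: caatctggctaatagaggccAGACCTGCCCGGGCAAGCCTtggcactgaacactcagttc
Rps27l, chr9:66946276-66946335, + strand, 1 mismatch: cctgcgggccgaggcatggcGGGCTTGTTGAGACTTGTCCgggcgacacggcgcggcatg
Bax, chr7:45467059-45467119, - strand, 2 mismatches: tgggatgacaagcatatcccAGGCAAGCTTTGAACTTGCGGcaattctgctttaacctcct
Aen, chr7:78895937-78895956, + strand, 3 mismatches: GGGCTTGTCCGGGCAAGGAG
Bbc3, chr7:16309466-16309525, + strand, 3 mismatches: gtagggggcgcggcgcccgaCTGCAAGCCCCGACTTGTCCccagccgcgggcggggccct
Sesn1, chr10:41887246-41887305, + strand, 3 mismatches: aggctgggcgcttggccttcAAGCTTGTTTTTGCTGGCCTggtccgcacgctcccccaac
Tigar, chr6:127109746-127109765, - strand, 3 mismatches: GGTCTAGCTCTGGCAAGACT
Trp53, chr11:69580264-69580323, + strand, 3 mismatches: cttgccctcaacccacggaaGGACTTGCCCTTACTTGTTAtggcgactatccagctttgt

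**Figure D1:**
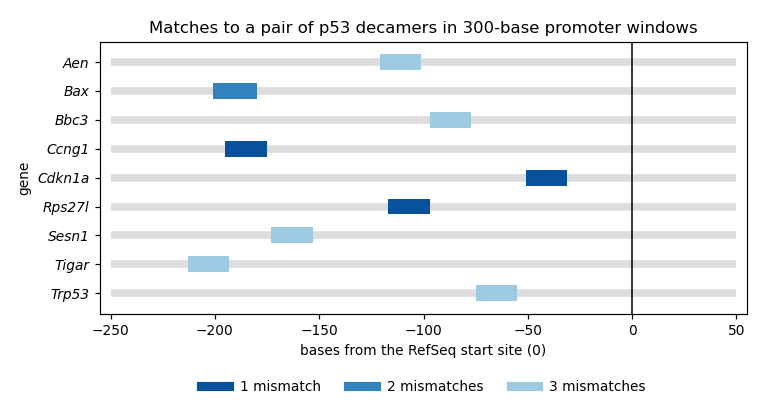
Position of the best match to a pair of p53 consensus decamers in promoter windows (grey lines) of 9 members. Positions are in bases from the RefSeq start of the window that holds the match, with the upstream match shown for Aen. The 30 members with a window had 41 windows, so a gene may have other starts. Blue bars mark the matches, which begin between 51 bases (Cdkn1a) and 213 bases (Tigar) before the start of that window. A darker bar has fewer mismatches.

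FPKM values are fragments scaled to transcript length and to the library's total, and where 3 of them are given for a gene they stand in the order CTL, Ti, Ti+Se-Met. Ratios are differences in log2(FPKM + 1) unless a fold is named, and a difference of 1 on that scale is counted as 2-fold. The depth, estimated from the steps that single fragments leave in the values of short genes, came to 14050000 fragments (CTL), 14750000 (Ti) and 10500000 (Ti+Se-Met). It gave each fold of FPKM a 95% exact conditional binomial interval, called the counting interval below, which covers counting error only. All 35 members passed the filter of at least 1 FPKM in at least 1 library, as did 11137 genes in all. The labelled cell type was read from Col1a1, Col1a2, Sparc, Spp1 and Runx2, which were at 17.1 FPKM or more in every library, while Sp7 and Bglap stayed below 1 FPKM, Alpl was at 1.51, 0.20 and 0.20 FPKM and Ibsp did not exceed 0.04. The osteoblast markers differed between the libraries, with Col1a1 at 1333, 354 and 482 FPKM, Col1a2 at 2688, 999 and 1257 FPKM and Spp1 at 1261, 3706 and 4659 FPKM, and the part of such a difference in the values of the members was not tested. Of 6 macrophage markers 4 were listed, and their summed level of 26.8, 15.2 and 13.1 FPKM was nearly all Lyz2, with Csf1r at 0.10 or less. The 2 listed endothelial markers summed to at most 0.24 FPKM and the 3 listed adipocyte markers to at most 1.69. Of the chondrocyte markers, Sox9 was at 24.9 to 39.3 FPKM and Col2a1 at 0.18 to 0.72.

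Every arm of the pathway was expressed in the untreated cells. The median member stood at 16.0 FPKM in CTL, against 13.5 for all genes past the filter. Ccng1 (180 FPKM), Rps27l (166 FPKM), Cdkn1a (154 FPKM), Phlda3 (139 FPKM) and Bax (137 FPKM) were the highest in CTL. Plk3 (2.12 FPKM), Pidd1 (2.82 FPKM) and Tigar (4.64 FPKM) were the lowest, and rested on an estimated 63, 116 and 228 fragments. The table's own annotation placed 18 of the 35 members in the KEGG p53 signaling pathway, against 0.521% of all genes. It placed 16 in the GO process of the cellular response to DNA damage, against 4.03% of all genes. The rule did not use this annotation, but it chose p53 pathway genes by name, so high shares follow from that choice. The 17 members outside that KEGG term included Phlda3, Aen, Rps27l and Trp53inp1.

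**Figure D2:**
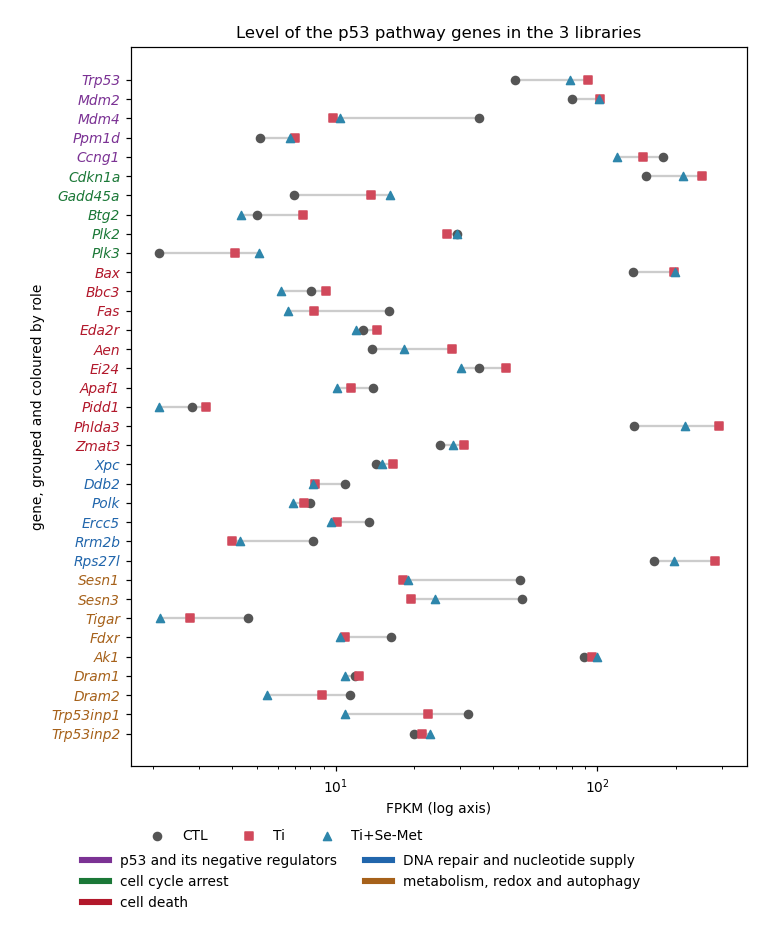
Level of each of the 35 members (FPKM, log axis) in the CTL, Ti and Ti+Se-Met libraries, with a grey line from the lowest to the highest of the 3. Levels ran from 2.11 FPKM (Pidd1 in Ti+Se-Met) to 293 FPKM (Phlda3 in Ti), and for Mdm4, Sesn1 and Sesn3 the Ti and Ti+Se-Met points lie together, well below CTL.

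The first comparison asks how the pathway stood in cells given Ti particles. In the Ti library, the transcript of p53 was higher and that of its inhibitor Mdm4 much lower than in CTL. Of the death genes, Phlda3 and Aen were higher and Fas was lower, and the sestrins Sesn1 and Sesn3 were lower. Counted at 2-fold, 1 of 35 members was higher (2.86%, against 3.63% of all genes) and 3 were lower (8.57%, against 3.64% of all genes), so 4 were past 2-fold either way, where 7.26% of all genes were. By direction alone, 20 members were higher and 15 lower, and of all genes 55.3% were higher and 44.5% lower. On the log2 scale the members had a median of 0.10, close to the 0.08 of all genes. With each library scaled to the same sum (TPM), the median of all genes shifted from 0.08 to -0.13, and the split of the members became 13 higher and 22 lower. For 7 members (Bbc3, Eda2r, Pidd1, Xpc, Ak1, Dram1 and Trp53inp2) the direction differed between scalings. The counting interval lay above equal levels for 16 members (45.7%, against 42.9% of all genes) and below for 14 (40.0%, against 32.0%). As TPM these numbers were 11 and 17, where 74.4% of all genes were clear of equal levels either way. That share was not split by direction. At this depth, 5 of the folds of FPKM as deposited could not be told from equal levels.

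The genes at the core of the loop stood in different proportions in the treated libraries. Trp53 was at 48.5, 92.3 and 78.7 FPKM, 1.90 times as high in Ti as in CTL (interval 1.77 to 2.04). Mdm4 was at 35.4, 9.81 and 10.4 FPKM. Its log2 ratio of -1.75 in Ti against CTL was the lowest of the 35 members. Its level in CTL was 3.61 times that in Ti (interval 3.29 to 3.96), on an estimated 1999 and 582 fragments. Only 0.476% of all genes had a lower ratio than Mdm4. Mdm2 was at 80.3, 103 and 102 FPKM, a fold of 1.28 in Ti against CTL (interval 1.23 to 1.34). The 2 related inhibitors thus differed in direction, and Mdm2 exceeded Mdm4 by 2.27 times in CTL, 10.5 times in Ti and 9.78 times in Ti+Se-Met. As TPM the ratio of Mdm2 was 0.13, still higher, and that of Mdm4 was -1.97. The ratio of Trp53 to Mdm4 was 1.37, 9.41 and 7.55 in the same order. Ppm1d, the phosphatase WIP1 that removes activating phosphates from p53, was at 5.13, 6.98 and 6.69 FPKM. Ccng1 encodes cyclin G1, which works with a phosphatase to switch MDM2 on, and was at 180, 150 and 119 FPKM. It was lower than CTL in both Ti-treated libraries, by factors of 1.195 and 1.51, and its promoter window holds a match with 1 mismatch.

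Among the genes of cell cycle arrest, 4 of 5 were higher in Ti than in CTL, where 55.3% of all genes were higher. Both counts are for FPKM as deposited, and the same 4 genes were higher under every scaling tried. Past 2-fold were 0 of the 5, where 7.26% of all genes were. Cdkn1a, which encodes the cyclin-dependent kinase inhibitor p21, was at 154, 253 and 214 FPKM, a fold of 1.64 in Ti against CTL (interval 1.57 to 1.72). Gadd45a, a stress sensor that acts on the G2 checkpoint and on stress kinases, was at 6.92, 13.7 and 16.2 FPKM. Its log2 ratio was 0.89 in Ti and 1.12 in Ti+Se-Met against CTL, where it was the single member at least 2-fold higher. Annotated exons of a gene on the opposite strand, E230016M11Rik, overlap 19.5% of the exon bases of Gadd45a, and reads of the pair cannot be told apart unless strand was used, which is not stated. Btg2, an antiproliferative cofactor of mRNA decay, was at 5.02, 7.53 and 4.35 FPKM, so it stood above CTL in Ti alone. The polo-like kinases Plk2 and Plk3, both stress-induced, differed. Plk2 was close to level at 29.2, 26.8 and 29.1 FPKM, while Plk3 was at 2.12, 4.12 and 5.08 FPKM. Plk2 exceeded Plk3 by 13.8 times in CTL, 6.49 times in Ti and 5.72 times in Ti+Se-Met. The fold of Plk3 in Ti against CTL was 1.94 (interval 1.43 to 2.67), and that of Plk2 was 0.916 (interval 0.841 to 0.999). Set against CTL, Ti+Se-Met gave Plk3 a fold of 2.40, and the log2 ratio was 0.96 because the added 1 shrinks the ratio of so low a gene.

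Of the 10 death genes listed, 8 were higher in Ti than in CTL in FPKM as deposited, against 55.3% of all genes. Of these 8, 5 were higher under every scaling. Phlda3, a membrane protein that competes with AKT for lipids and so blocks survival signaling, was at 139, 293 and 218 FPKM. Its log2 ratio in Ti against CTL was 1.07 (fold 2.11, interval 2.01 to 2.21), the highest of the members, and it was 0.84 as TPM and 0.93 with upper-quartile scaling, below 2-fold. Aen, a nuclease that degrades nuclear DNA and RNA in apoptosis, was at 13.8, 27.97 and 18.3 FPKM, a log2 ratio of 0.97. Bax, the pore-forming effector of mitochondrial apoptosis, was at 137, 197 and 199 FPKM, a fold of 1.44 in Ti against CTL (interval 1.34 to 1.54). Exons of Gm45808, on the same strand, overlap 22.2% of those of Bax. Bbc3 encodes PUMA, which unleashes BAX, and was at 8.06, 9.23 and 6.17 FPKM. Bax thus exceeded Bbc3 by 17.0, 21.4 and 32.2 times.

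The remaining death genes showed smaller differences, apart from Fas. This death receptor at the cell surface was at 16.0, 8.25 and 6.58 FPKM. Its level in CTL was 1.93 times that in Ti (interval 1.52 to 2.48) and 2.42 times that in Ti+Se-Met (interval 1.80 to 3.30), the latter a log2 ratio of -1.16. Eda2r, a further receptor of the TNF receptor family, was at 12.8, 14.4 and 11.99 FPKM, with a ratio in Ti against CTL that became -0.05 as TPM. Ei24, an endoplasmic reticulum protein linked to autophagy, was at 35.3, 44.9 and 30.2 FPKM. Apaf1, the scaffold of the apoptosome, was at 13.9, 11.4 and 10.2 FPKM, lower than CTL in both Ti-treated libraries. Pidd1, the scaffold that activates caspase-2, was at 2.82, 3.19 and 2.11 FPKM. Neither Pidd1 nor Bbc3 could be told from equal levels in Ti against CTL at this depth. Zmat3, an RNA-binding protein that controls splicing, was at 25.1, 31.0 and 28.04 FPKM.

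Of the genes of DNA repair, 4 of 6 were lower in Ti than in CTL in FPKM as deposited (66.7%, against 44.5% of all genes). The same 4 were lower under every scaling. Rrm2b, the p53-inducible subunit of ribonucleotide reductase that supplies nucleotides for repair, was at 8.17, 4.01 and 4.31 FPKM. Its level in CTL was 2.04 times that in Ti (interval 1.75 to 2.37), a log2 ratio of -0.87 after the added 1. Ddb2, which finds ultraviolet damage, was at 10.9, 8.33 and 8.20 FPKM, and exons of Acp2 on the opposite strand overlap 26.7% of its exon bases. Ercc5, the nuclease that cuts 3′ of a lesion in nucleotide excision repair, was at 13.4, 10.2 and 9.60 FPKM. Xpc, which recognises distortions of the helix, was at 14.3, 16.6 and 15.0 FPKM, with a ratio of 0.21 in Ti against CTL and -0.01 as TPM. Polk, a polymerase that copies past lesions, was at 7.99, 7.57 and 6.87 FPKM, not told from equal levels in Ti against CTL. Rps27l stood apart from this group. It encodes a ribosomal protein-like regulator of MDM2 and was at 166, 284 and 197 FPKM, a fold of 1.71 in Ti against CTL (interval 1.57 to 1.86). Its sequence is close to that of the ribosomal protein gene Rps27, so reads could be shared between the pair.

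The metabolic and autophagy genes held the lowest ratios after Mdm4. In FPKM as deposited, 6 of 9 were lower in Ti than in CTL (66.7%, against 44.5% of all genes). The same 6 were lower under every scaling. Sesn1 and Sesn3 encode sestrins, which restrain mTORC1 and limit reactive oxygen species. Sesn1 was at 50.6, 18.1 and 19.0 FPKM, a log2 ratio of -1.44 in Ti and -1.37 in Ti+Se-Met against CTL. Sesn3 was at 51.5, 19.4 and 24.0 FPKM, where the ratio was -1.36 and -1.07. The level in CTL was 2.80 times that in Ti for Sesn1 (interval 2.59 to 3.04) and 2.66 times for Sesn3 (interval 2.54 to 2.78), so the pair differed from CTL by similar factors. The estimated fragments were 2173, 813 and 609 for Sesn1 and 6495, 2567 and 2262 for Sesn3, so counting error was small for both. The third sestrin, Sesn2, which is no member, is also induced by ATF4 and was chosen after its values were seen, was at 15.5, 24.0 and 16.4 FPKM, in the opposite direction in Ti. Tigar, an enzyme that lowers fructose-2,6-bisphosphate and so restrains glycolysis, was at 4.64, 2.78 and 2.13 FPKM. Fdxr, the ferredoxin reductase of mitochondria, was at 16.3, 10.9 and 10.4 FPKM. Both were lower than CTL in each treated library. Ak1, an adenylate kinase, was even at 89.5, 95.8 and 99.7 FPKM.

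The paralog pairs among the autophagy genes differed in direction or size. Dram1, a lysosomal membrane protein that promotes autophagy, was at 11.9, 12.3 and 10.8 FPKM, and its counting interval included equal levels in all 3 comparisons. The related Dram2 was at 11.3, 8.85 and 5.48 FPKM, and the ratio of Dram1 to Dram2 was 1.05, 1.39 and 1.98. Trp53inp1, a stress protein of the nucleus and of autophagosomes that also promotes p53 phosphorylation, was at 32.0, 22.5 and 10.9 FPKM. Trp53inp2, its paralog, was at 19.98, 21.3 and 23.1 FPKM. The level of Trp53inp1 was thus 1.603 times that of Trp53inp2 in CTL, 1.06 times in Ti and 0.471 times in Ti+Se-Met.

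**Figure D3:**
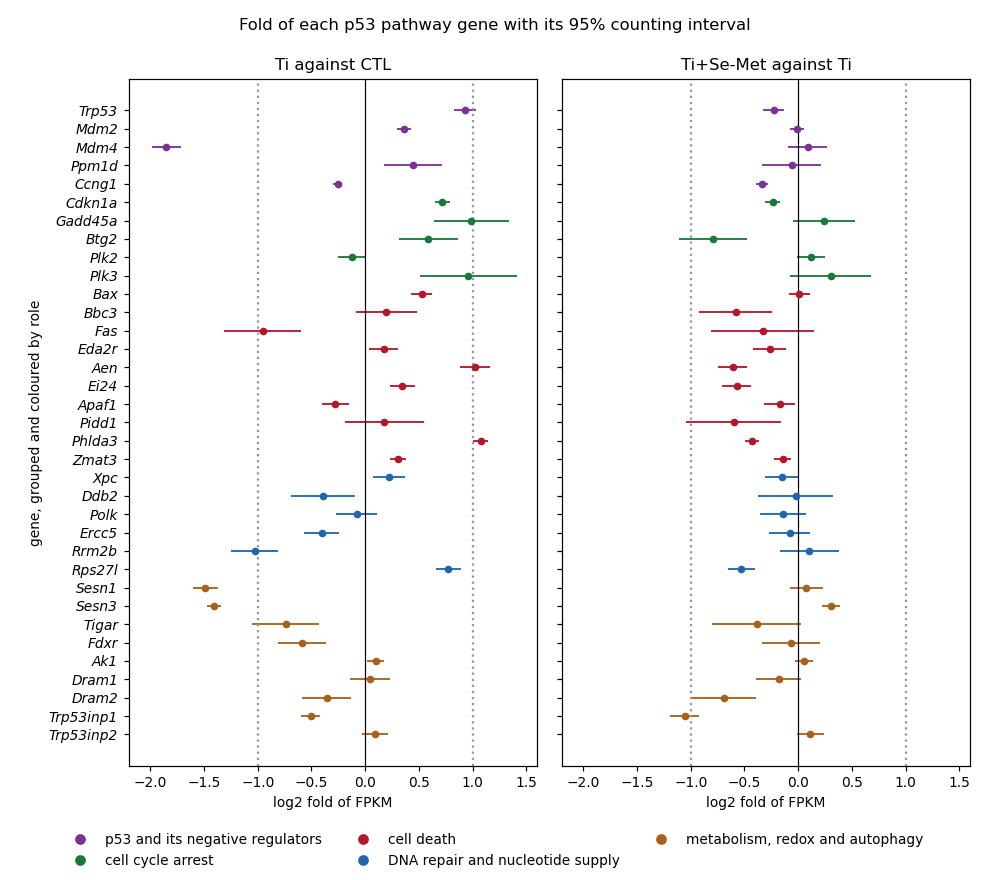
Fold of FPKM of each member on the log2 scale, for Ti against CTL (left) and Ti+Se-Met against Ti (right). Points are folds, lines are 95% counting intervals, dotted lines mark 2-fold and colours mark roles. For Ti against CTL, Mdm4, Sesn1, Sesn3 and, barely, Rrm2b lie past the left dotted line and Phlda3 and Aen past the right one. For Ti+Se-Met against Ti, Trp53inp1 is the one point past a dotted line.

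The second comparison asks how cells given both Ti particles and Se-Met differed from cells given the particles alone. On the log2(FPKM + 1) scale, 0 members were past 2-fold, and of all genes 0.162% were higher and 0.0629% lower, or 0.224% either way. The differences were small and mostly downward. In the Ti+Se-Met library, 25 of 35 members were lower than in Ti (71.4%, against 61.1% of all genes), and between 21 and 25 over the scalings. The other 10 were higher, against 38.5% of all genes. The counting interval lay below equal levels for 15 members (42.9%, against 29.4% of all genes) and above for 1 (2.86%, against 15.7%). The number above depended on the scaling, with 4 as TPM and 5 with either of the other scalings, where 14, 14 and 13 were below. Either way, 43.6% of all genes were clear of equal levels as TPM and 42.7% with each of the others. These shares were not split by direction. Over the 35 members the median was -0.14 on the log2 scale, against -0.06 for all genes.

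The lowest ratio belonged to Trp53inp1, at -0.99. Its fold was 0.481 (interval 0.438 to 0.528), on an estimated 1747 and 599 fragments, and 0.0629% of all genes had a lower ratio. As a fold of FPKM without the added 1 it was therefore past 2-fold, and with the added 1 just inside it. Btg2 followed with a log2 ratio of -0.67 (fold 0.578, interval 0.462 to 0.718), and then Dram2 with -0.60 (fold 0.619, interval 0.500 to 0.764).

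The death genes were lower as a group. In FPKM as deposited, 9 of 10 were below their level in Ti (90.0%, against 61.1% of all genes). The same 9 were lower under every scaling tried. Of the 10, 8 had a counting interval below equal levels in FPKM as deposited (80%, against 29.4% of all genes). Aen had a fold of 0.655 (interval 0.595 to 0.720), Ei24 of 0.674 (interval 0.613 to 0.739) and Bbc3 of 0.668 (interval 0.526 to 0.844). For Phlda3 it was 0.744 (interval 0.712 to 0.779). The exception was Bax, whose fold was 1.01 (interval 0.942 to 1.08). The counting interval of Fas, 0.570 to 1.11, also included equal levels, on an estimated 104 fragments in Ti and 59 in Ti+Se-Met. Among the repair genes, Rps27l had a fold of 0.694 (interval 0.636 to 0.755).

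In the core of the loop, Trp53 and Cdkn1a were slightly lower in Ti+Se-Met than in Ti, with folds of 0.853 (interval 0.797 to 0.912) and 0.848 (interval 0.809 to 0.888). Mdm2 had a fold of 0.992 (interval 0.947 to 1.04) and Mdm4 of 1.06 (interval 0.937 to 1.21), and neither could be told from equal levels. Sesn3 was the member with the highest ratio, 0.29, and a fold of 1.24 (interval 1.17 to 1.31). That of Sesn1 was 1.05 (interval 0.946 to 1.17). Gadd45a and Plk3 had folds of 1.18 and 1.23, with intervals that included equal levels.

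The comparison of Ti+Se-Met with CTL shares its libraries with those above. In it 1 member was at least 2-fold higher (2.86%, against 2.64% of all genes) and 5 were lower (14.3%, against 3.32%), and 5.96% of all genes were past 2-fold either way. By direction, 14 members were higher (40.0%, against 51.0% of all genes) and 21 lower (60.0%, against 48.8%). Counting intervals lay above equal levels for 13 (37.1%, against 36.0%) and below for 16 (45.7%, against 33.4%). As TPM these numbers were 8 and 21, where 69.4% of all genes were clear of equal levels either way. That share was not split by direction, and TPM shifted the median log2 ratio of all genes from 0.01 to -0.17. The member at least 2-fold higher on the log2(FPKM + 1) scale was Gadd45a, with a plain fold of 2.34 (interval 1.83 to 3.004). By plain fold of FPKM, Plk3 (2.40 times higher), Tigar (2.18 times lower) and Dram2 (2.07 times lower) were past 2-fold as well. Those at least 2-fold lower were Mdm4, Trp53inp1, Sesn1, Fas and Sesn3, with log2 ratios from -1.67 to -1.07. The CTL level of Trp53inp1 was 2.95 times that in Ti+Se-Met (interval 2.70 to 3.23). Trp53inp1 was at a ratio of -1.48 here and of -0.49 in Ti against CTL. The median of the members was -0.17, against 0.01 for all genes. The death gene Aen and Rps27l, at ratios of 0.39 and 0.24, were nearer to CTL than in the Ti library, where they were at 0.97 and 0.77. Other members were farther from CTL than in the Ti library. Among them were Gadd45a, at 1.12 here and 0.89 in Ti, and Dram2, at -0.93 here and -0.33 in Ti.

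**Figure D4:**
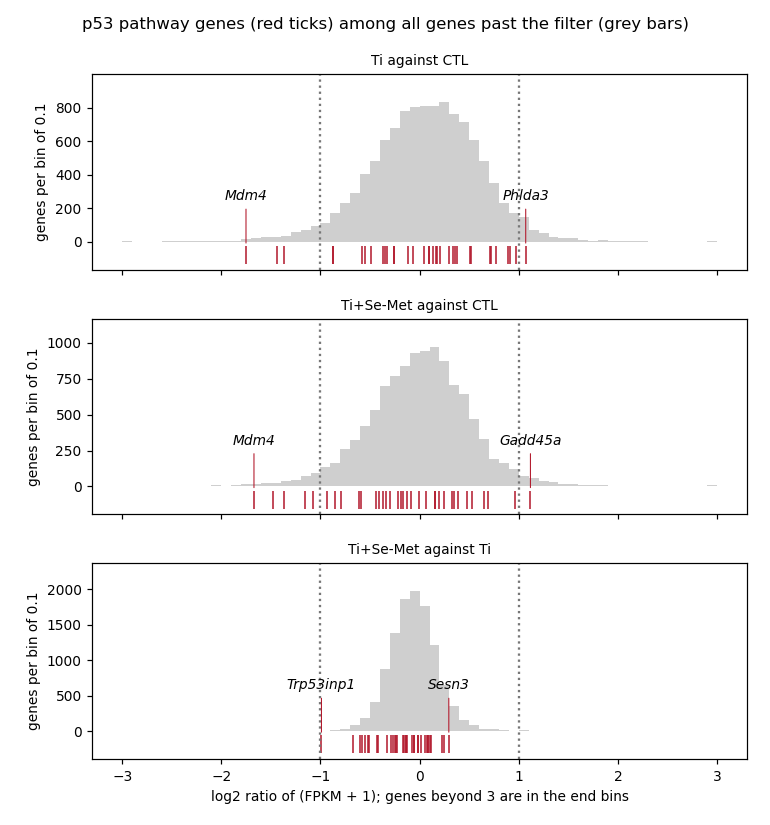
Log2 ratio of FPKM + 1 for the 35 members (red ticks) beneath the distribution of all 11137 genes past the filter (grey bars, genes per bin of 0.1), in the 3 comparisons. The members lie on both sides of the distribution in Ti against CTL, from Mdm4 at -1.75 to Phlda3 at 1.07, and in Ti+Se-Met against Ti they run from Trp53inp1 at -0.99 to Sesn3 at 0.29.

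The members with a promoter match and those with a window but no match overlapped in their ratios. In Ti against CTL, 6 of the 9 members with a match were higher and 3 lower, with log2 ratios from -1.44 (Sesn1) to 0.97 (Aen) and a median of 0.52. Without a match, 12 of 21 were higher and 9 lower, with a median of 0.09. Of all genes past the filter 55.3% were higher, with a median of 0.08, so the members without a match were close to all genes. Between Ti+Se-Met and Ti, 7 of 9 and 14 of 21 were lower in Ti+Se-Met, where 61.1% of all genes were. Cdkn1a, Ccng1 and Rps27l, each with a match of 1 mismatch, were at log2 ratios of 0.71, -0.26 and 0.77 in Ti against CTL. Phlda3 and Mdm4, at both ends of the range, held no match in their windows.

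Other genes around p53 were described from lists drawn from general knowledge of the pathway, and some genes stand in more than 1 list. Of 33 further genes that p53 is known to induce, 3 were past 2-fold between Ti and CTL, 2 of them higher in Ti, close to the 7.26% of all genes past 2-fold. Steap3, a ferrireductase, was at 0.53, 2.37 and 1.87 FPKM, and Vdr, the vitamin D receptor, at 10.3, 22.1 and 14.7 FPKM. Thbs1, the matrix protein thrombospondin-1, was lower, at 80.0, 34.1 and 55.8 FPKM. Compared with CTL, the stress sensor Gadd45b, at 18.6, 34.4 and 39.5 FPKM, was past 2-fold in Ti+Se-Met. For this list the Ti-to-CTL median was 0.19 on the log2 scale, and -0.03 as TPM.

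Among 22 kinases and cofactors upstream of p53, 2 were at least 2-fold higher in Ti than in CTL and 0 were lower, where 3.63% and 3.64% of all genes were. Chek2, the checkpoint kinase that phosphorylates p53, was at 4.43, 10.4 and 10.0 FPKM. Ppp1r13l, which encodes the p53 inhibitor iASPP, was at 2.47, 6.99 and 7.01 FPKM.

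The 20 genes that p53 is known to lower through p21 and the DREAM complex, which act in the cell cycle, were mostly higher in the treated libraries. In Ti against CTL, 19 of 20 were higher, against 55.3% of all genes in FPKM as deposited. Over the scalings, between 17 and 19 were higher. At least 2-fold higher were 4 of the 20 (Mcm5, Mybl2, Plk1 and Aurka), against 3.63% of all genes. The median log2 ratio of the 20 genes was 0.64. Compared with Ti, 19 of 20 were again higher in Ti+Se-Met, against 38.5% of all genes in FPKM as deposited, with a median of 0.35. The number higher was 19 under every scaling. Genes past 2-fold in Ti+Se-Met compared with CTL included Plk1, Aurka and Mcm5 again and Ccnb1, Ccnb2, Cdc25c, Cdc20 and Birc5. Ccnb2, cyclin B2, was at 9.94, 12.7 and 23.4 FPKM, and Cdc20, an activator of mitotic exit, at 15.2, 30.1 and 46.2 FPKM. Cdkn1a was highest in the Ti library, whereas these 2 cell cycle genes were highest in Ti+Se-Met.

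Stress genes that share regulators with members of the pathway also differed. Of 9 genes of the ATF4 response, 8 were higher in Ti than in CTL, against 55.3% of all genes in FPKM as deposited. At least 2-fold higher were 5 (Atf4, Ddit3, Trib3, Chac1 and Asns), against 3.63% of all genes. All 9 were lower in Ti+Se-Met than in Ti, against 61.1% of all genes in FPKM as deposited, and stayed so under every scaling. Trib3, a pseudokinase, was at 4.73, 31.3 and 17.2 FPKM, and Asns, asparagine synthetase, at 26.9, 119 and 91.4 FPKM. All 10 immediate early genes were higher in Ti than in CTL, against 55.3% of all genes in FPKM as deposited. They stayed higher under every scaling. Of the 10, 5 were at least 2-fold higher (Fos, Junb, Egr1, Ier2 and Dusp1), against 3.63% of all genes. Ier3 was also past 2-fold in Ti+Se-Met. Junb was at 9.12, 50.4 and 49.1 FPKM and Egr1, a zinc finger transcription factor, at 6.44, 20.7 and 23.2 FPKM. Btg2, Gadd45a, Plk2 and Plk3 are also known as rapidly induced genes, and Bbc3 as a target of the ATF4 partner CHOP. The part of cell cycle state, of the ATF4 response and of the immediate early response in the values of the members was not tested.

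**Figure D5:**
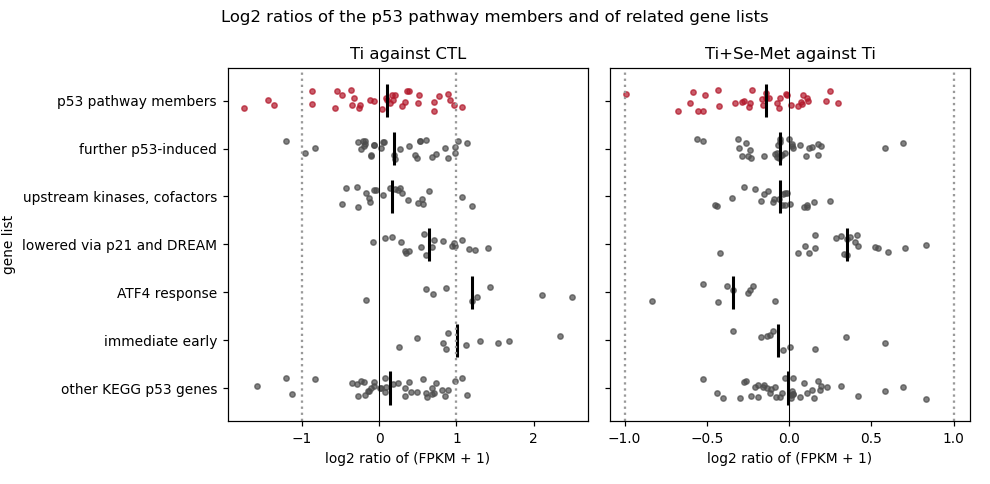
Log2 ratio of FPKM + 1 of the p53 pathway members (red) and of the genes of 6 related lists (dark grey) for Ti against CTL (left) and Ti+Se-Met against Ti (right, on a narrower axis). Each point is a gene, black bars are list medians and dotted lines mark 2-fold. The genes lowered through p21 and DREAM have medians of 0.64 and 0.35, the ATF4 response of 1.195 and -0.34, and the members of 0.10 and -0.14.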

How the data were processed

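Per the study's methods, the authors discarded adapter-bearing and low-quality reads, mapped with HISAT2 and counted with HTSeq, and the submitters' processing notes also name StringTie, SAMtools and the build mm9. The deposited unit is FPKM, given to 2 decimals for each gene. How FPKM was made is not given in the sources used here, and no coordinates of the files were used. Promoter sequences are from RefSeq on GRCm38.p6, matched by symbol.

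Log2(FPKM + 1) ratios were computed in Python 3.11.15 (scipy 1.17.1, pandas 2.3.3, numpy 2.4.6), and the steps were tested on simulated data. With 1 library per condition no test was run. Depth was estimated from 453 genes with 1 transcript of 350 to 1000 bases (GENCODE M21 lengths matched by RefSeq accession, less 150 bases), and 98.0% of the genes past the filter had a length. Settings that scored nearly as well placed the depth between 13850000 and 14450000 fragments for CTL, 14550000 and 14850000 for Ti, and 10400000 and 10650000 for Ti+Se-Met. In CTL 58.1% of 117 low values lay on a step (16.4% by chance), in Ti 48.9% of 90 (18.2%) and in Ti+Se-Met 43.7% of 87 (15.7%), so the depths are approximate.

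All members in the table are named, and genes of the other lists where they were past 2-fold in any comparison or, for Sesn2, as the paralog of members. Some genes that fall under this rule are not reported here. Genes below 1 FPKM in all libraries were left out of the ratios. Col1a1, Sox9 and the other cell type markers are given as a check. The members and lists were chosen with earlier results of these data known. As alternatives, the pseudocount was set to 0.1 or 5, the filter dropped or raised to a mean of 5 FPKM, the threshold set to 1.5-fold or 4-fold, libraries rescaled (TPM, median of ratios, upper quartile), and the depth halved.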

Additional observations from a re-analysis of the deposited data

How the results depend on the processing

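No paired analysis was possible because there was 1 library per condition, and none could be left out. Shares of all genes at the same setting stand in parentheses. The number of members past 2-fold in Ti against CTL, 4, became 12 at 1.5-fold (26.8%), 0 at 4-fold (0.512%) and 6 with a pseudocount of 0.1 (11.2%). In Ti+Se-Met against CTL, 6 became 14 at 1.5-fold (22.1%), 0 at 4-fold (0.440%), 9 with a pseudocount of 0.1 (9.95%) and 3 with a pseudocount of 5 (2.18%). In Ti+Se-Met against Ti, 0 became 3 at 1.5-fold, namely Trp53inp1, Btg2 and Dram2 (2.12%), and 1 with a pseudocount of 0.1, Trp53inp1 (0.808%). These follow from the construction of each setting. As TPM, the median log2 ratio of the members became -0.13 for Ti and -0.34 for Ti+Se-Met, each against CTL, in place of 0.10 and -0.17, while that of all genes became -0.13 and -0.17. With TPM and with upper-quartile scaling, 0 members were 2-fold higher in Ti than in CTL (1.66% and 2.17%), since Phlda3 was then below the threshold. Lower were 5 (6.05%) and 3 (4.80%). The numbers of members with a counting interval clear of equal levels, 30, 29 and 16, were 26 (65.1%), 25 (57.5%) and 14 (30.2%) with the depth halved. Over the scalings they ran from 28 to 30 (74.4% to 74.8%), 28 to 31 (68.6% to 69.5%) and 16 to 19 (42.7% to 45.1%). Of 525 ratios of single members under other pseudocounts and scalings, 80 moved at least as far as their counting interval reaches to 1 side. Of those past 2-fold, 0 changed direction, which was fixed by construction. A pseudocount keeps the direction of a ratio, and the scalings shifted ratios by far less than 2-fold. Genes with few fragments, such as Plk3, Pidd1 and Fas, had wide intervals.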

Other observations

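Beyond the members, 40 genes with the KEGG p53 signaling pathway annotation passed the filter. In Ti against CTL, 2 were at least 2-fold higher (Chek2 and Steap3) and 3 lower (Igf1, Gorab and Thbs1), where 3.63% and 3.64% of all genes were. In Ti+Se-Met against CTL, 5 were higher and 1 lower, where 2.64% and 3.32% of all genes were. Igf1, a growth factor whose signaling opposes cell death, was at 58.2, 18.8 and 16.7 FPKM (CTL, Ti, Ti+Se-Met). Gorab, a Golgi protein, was at 24.0, 10.5 and 12.5 FPKM. In Ti+Se-Met against Ti, 20 of the 40 were higher and 20 lower, where 38.5% and 61.1% of all genes were. Past 2-fold were 0 of the 40, where 0.224% of all genes were.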
